A study of Mus musculus with 6 samples.

Results

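Expression of 7 genes of GABA synthesis, transport, breakdown and metabotropic reception was examined in the pre-limbic cortex (PLc) of mice given sub-chronic ketamine or saline. They were chosen by name, namely Gad1, Gad2, Slc32a1, Slc6a11, Abat, Gabbr1 and Gabbr2, and all 7 were found among the 37620 genes of the deposited table. Each group held 3 C57Bl/6 mice aged 9 weeks, and the mice used in the study were male. Ketamine mice received ketamine intraperitoneally at 30 mg/kg for 5 days, saline mice received the vehicle on the same days, and PLc was dissected 2 days after the last injection. Each mouse gave its own library of total RNA, and mice are named here by the numbers in their labels: 1, 6 and 10 for saline, and 3, 5 and 9 for ketamine. In such bulk tissue, fewer cells of a type and less RNA per cell cannot be told apart.

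GABA is made from glutamate by 2 glutamate decarboxylases, GAD67 (encoded by Gad1) and GAD65 (encoded by Gad2), and is packed into synaptic vesicles by the vesicular transporter encoded by Slc32a1. These proteins are found in inhibitory neurons, which in the cortex are the local interneurons and in the striatum include the projecting medium spiny neurons. Released GABA is taken up by plasma membrane transporters, among them GAT-3, which is found mainly in astrocytes and is encoded by Slc6a11. GABA transaminase, encoded by Abat, breaks it down in mitochondria. Metabotropic GABA-B receptors are dimers of the subunits encoded by Gabbr1, which binds GABA, and Gabbr2, which couples to the G protein.

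The deposited values, called normalized counts here, are reads per gene after division by each library's size factor. Whole reads could be recovered from them and came to between 26273436 and 32643726 per library, so each of the 7 genes rests on at least 2060 reads in each library. Markers of cortical excitatory neurons were present in all libraries, with Slc17a7 at 32973 to 49417 normalized counts in saline mice and 22152 to 40369 in ketamine mice. Markers of neighbouring regions were not absent. The sum of 12 striatal medium spiny neuron markers ranged from 8393 to 10533 normalized counts in saline mice, and was 63308, 32176 and 9809 in ketamine mice 3, 5 and 9. The sum of 6 olfactory bulb markers was between 219 and 294 in saline mice, and was 1696, 1490 and 9748 in ketamine mice 3, 5 and 9. The sum of 7 oligodendrocyte markers was 391566 in saline mouse 10, against 58270 and 45581 in saline mice 1 and 6 and between 108773 and 166910 in ketamine mice. Every gene of these lists had reads in at least 1 library. The part of these differences in the results below was not tested.

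Every ketamine mouse had more Gad1, Gad2 and Slc32a1 than every saline mouse. The mean of the ketamine mice was 1.72-fold that of the saline mice for Gad1, 2.10-fold for Gad2 and 1.83-fold for Slc32a1. Of the 7 genes, these 3 did not overlap between the groups, where 5.69% of all 16127 genes tested had the ketamine mice entirely above and 4.66% entirely below. None of the 7 passed the test across all genes. At an adjusted p under 0.05, limma and edgeR called 0 of the 7 (0% of all genes tested for each), and DESeq2 on the recovered reads called 0 of the 7 (1.13% of all genes, 0.901% higher and 0.23% lower). An unadjusted p under 0.05 by limma was found for those 3 genes, all higher, against 5.81% of all genes, 3.44% higher and 2.37% lower. Of the 7 genes 5 were higher and 2 lower on average, and their median log2 fold change was 0.75, beside a median of -0.01 over all genes tested.

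The 3 genes that were higher in every ketamine mouse are all transcribed from the plus strand of mouse chromosome 2 (mm9), at separate places. The sequences before their RefSeq start sites are shown because these 3 genes were higher in each ketamine mouse. They were taken from RefSeq's promoter windows and placed on mm9 by an exact match. Bases inside the gene's own exons in GENCODE M1 were left out, so that 163, 128 and 250 bases remained of windows of 250. Capitals mark matches to the motifs searched on both strands, namely the homeodomain core TAATTA, the GC box GGGCGG, the TATA box string TATAAA, the CCAAT box and the E-box CACGTG, with no match overlapping another here. The stretches are chr2:70399936-70400098, chr2:22477597-22477724 and chr2:158436244-158436493, in that order. The Gad1 stretch lies between exons of the gene as GENCODE M1 draws it, and the other stretches end just before their gene.
Gad1: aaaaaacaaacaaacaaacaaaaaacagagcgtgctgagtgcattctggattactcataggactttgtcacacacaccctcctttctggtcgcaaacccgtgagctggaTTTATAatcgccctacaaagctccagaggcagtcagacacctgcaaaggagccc
Gad2: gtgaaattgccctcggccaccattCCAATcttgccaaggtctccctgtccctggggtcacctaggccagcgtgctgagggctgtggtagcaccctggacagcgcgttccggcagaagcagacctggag
Slc32a1: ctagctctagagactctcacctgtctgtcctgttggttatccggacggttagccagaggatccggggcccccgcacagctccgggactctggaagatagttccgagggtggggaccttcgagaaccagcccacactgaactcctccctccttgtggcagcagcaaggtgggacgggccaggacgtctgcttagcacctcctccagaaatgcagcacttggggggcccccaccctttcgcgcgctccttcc
TAATTA, the core that many homeodomain factors of GABAergic neurons bind, was in none of the 3 full windows and in 4.84% of 32851 windows of the same length. TATAAA, read on the other strand as TTTATA, began 141 bases before the start of Gad1 and was in 12.4% of all windows. CCAAT began 226 bases before the start of Gad2 and was in 33.8% of all windows. GGGCGG was in the Gad1 window alone, in the exonic bases that are not shown, and in 32.7% of all windows. CACGTG was in none of the 3 and in 6.02% of all windows. The 3 windows held 17, 13 and 12 CG dinucleotides, beside a median of 6 over all windows. The letters show which strings are present and nothing of what binds there.

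Gad1 (ENSMUSG00000070880, chromosome 2 from 70391129 to 70440071) had 9233, 8469 and 10686 normalized counts in saline mice 1, 6 and 10, compared with 15903, 11653 and 21399 in ketamine mice 3, 5 and 9. The groups did not overlap, ketamine mouse 9 stood highest, and ketamine mouse 5 was the closest to the saline mice. The means were 9463 ± 1126 and 16318 ± 4886 (SD, n = 3 each; two-sided exact permutation p = 0.1, the smallest possible with 3 mice against 3). On the log2 scale ketamine exceeded saline by 0.75 (standard error, SE, 0.23, 95% interval 0.20 to 1.30, adjusted p = 0.673 by limma, 0.119 by DESeq2, 0.605 by edgeR). Intervals here and below are those of limma for each gene alone, without adjustment over genes. They take a shared estimate of the spread for both groups, also where the groups' SDs differ.

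Gad2 (ENSMUSG00000026787, chromosome 2 from 22477725 to 22549394) had 4478, 3807 and 4598 normalized counts in saline mice 1, 6 and 10. It had 15054, 6999 and 4972 in ketamine mice 3, 5 and 9. Saline mice were close together, with 1.21 times as much in the highest as in the lowest, while the ketamine mice spread over 3.03 times. Ketamine mouse 3 was the highest, and mouse 9, which led for Gad1, was only just above the saline mice. The means were 4294 ± 426 and 9008 ± 5333 (SD, n = 3 each; two-sided exact permutation p = 0.1). By limma the log2 difference came to 0.91 (SE 0.37, 95% interval 0.03 to 1.79, adjusted p = 0.851 by limma, 0.218 by DESeq2, 0.707 by edgeR). Without ketamine mouse 3 it was 0.46, and without ketamine mouse 9 it was 1.26.

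Slc32a1 (ENSMUSG00000037771, chromosome 2 from 158436494 to 158441484) had 2181, 1988 and 2806 normalized counts in saline mice 1, 6 and 10, compared with 6090, 3143 and 3558 in ketamine mice 3, 5 and 9. Ketamine mouse 3 again stood apart from the others, and mice 5 and 9 lay above the highest saline mouse by less than the saline mice differed among themselves. The means were 2325 ± 427 and 4264 ± 1596 (SD, n = 3 each; two-sided exact permutation p = 0.1). Ketamine exceeded saline by a log2 difference of 0.83 (SE 0.27, 95% interval 0.20 to 1.46, adjusted p = 0.677 by limma, 0.165 by DESeq2, 0.633 by edgeR), and without ketamine mouse 3 it was 0.54. The gene shares 697 exon bases with Gm14205 on the other strand, which averaged 5.84 normalized counts, and the strand setting of the counting is not given in the sources used here.

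**Figure D1:**
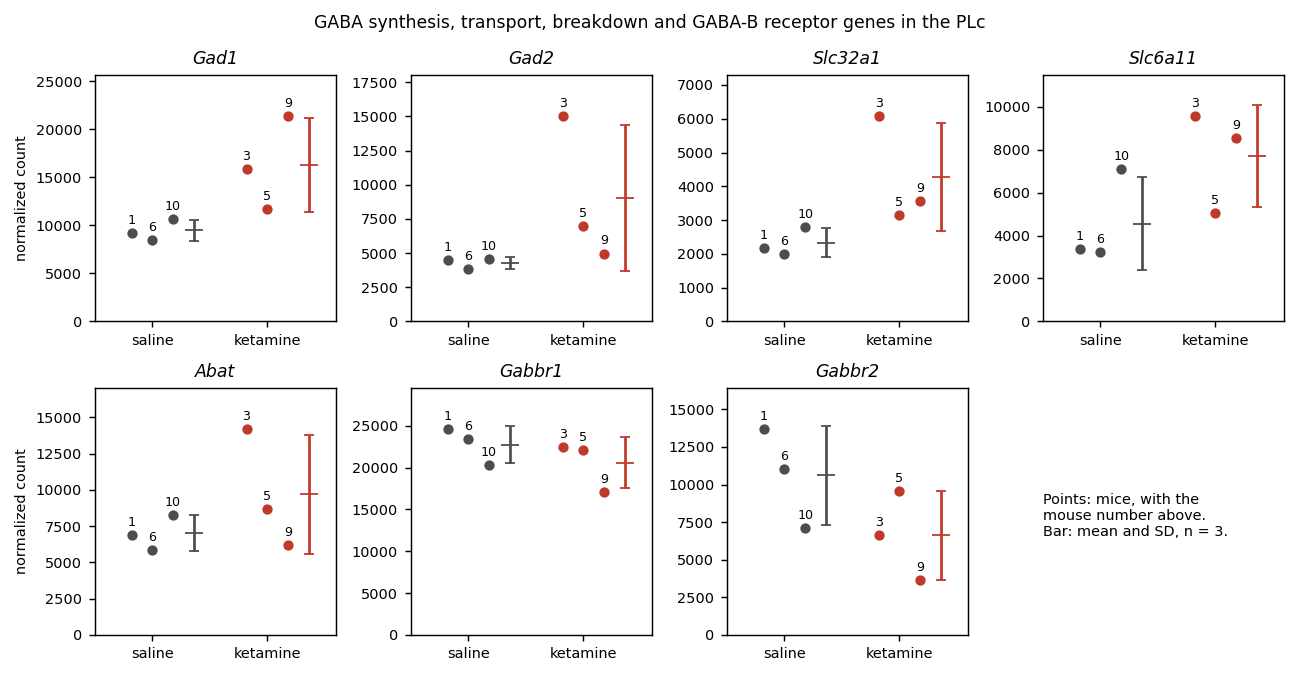
Normalized counts of the 7 genes (vertical axis, from 0) in saline mice (grey) and ketamine mice (red), with each mouse's number above its point and the mean and SD beside each group (n = 3). For Gad1, Gad2 and Slc32a1 all ketamine mice are above all saline mice, with mouse 9 highest for Gad1 and mouse 3 highest for Gad2 and Slc32a1, and the other 4 genes overlap between the groups.

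The ketamine mice stood in different orders for the 2 decarboxylase genes. In log2 units from the saline mean, Gad1 was at 0.76, 0.31 and 1.18 in ketamine mice 3, 5 and 9, and Gad2 was at 1.81, 0.71 and 0.22. The mean of the olfactory bulb markers on the same scale was 2.90, 2.35 and 5.42 in these mice, the order of Gad1. That order was not particular to them. Markers of the GABAergic neuron lineage, at 1.25, 0.83 and 1.40, and of astrocytes, at 0.19, 0.0045 and 0.24, shared it. The mean of the striatal markers was 3.37, 2.22 and -0.09, the order of Gad2. Nor was this order particular to the striatal markers. Abat, at 1.03, 0.32 and -0.17, shared it. So did the mean of the GABA-B receptor partners and effectors described below, at 0.19, 0.10 and -0.19. Slc32a1, at 1.40, 0.45 and 0.63, had neither order. With 3 mice few orders are possible, and the part of any list in these values was not tested. With ketamine mice 3 and 5 both left out, a choice made after seeing the data, the log2 fold change rested on mouse 9 alone and was 1.18 for Gad1, 0.63 for Slc32a1 and 0.22 for Gad2. With saline mouse 10 and ketamine mouse 9 left out, it was 0.62 for Gad1, 1.07 for Slc32a1 and 1.31 for Gad2. Other markers of the GABAergic neuron lineage separated the groups, ketamine above, for 7 of 9 genes (5.69% of all genes), among them Dlx1, a homeodomain factor of developing inhibitory neurons. Dlx1 had 484 to 532 normalized counts in saline mice, compared with 1231, 1094 and 3217 in ketamine mice 3, 5 and 9. Lhx6, a factor of interneurons that express parvalbumin or somatostatin, had 969, 432 and 205 in these mice, and between 405 and 517 in saline mice. DESeq2 called 5 of the 9 genes higher (0.901% of all genes), and limma called 0, with an unadjusted p under 0.05 for 7, all higher (3.44% of all genes). Over 10 markers of cortical interneuron classes the median was -0.17, with 2 higher and 8 lower. Limma called 0 of these 10, while DESeq2 called Ndnf, a marker of neurogliaform interneurons, higher (log2 fold change 1.19, adjusted p = 1.08e-06) and Pvalb, which encodes parvalbumin, lower (log2 fold change -1.30, adjusted p = 0.0321). DESeq2 called 0.901% of all genes higher and 0.23% lower. Of the 10 markers, Ndnf alone had all ketamine mice above all saline mice (5.69% of all genes). Pvalb and Sst, which encodes somatostatin, made up the 2 with all ketamine mice below (4.66% of all genes). Sst had 3695 to 4227 normalized counts in saline mice and 3229 to 3568 in ketamine mice (log2 fold change -0.18 by limma). Medians of the microglia and endothelial lists were -0.04 and -0.09.

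**Figure D2:**
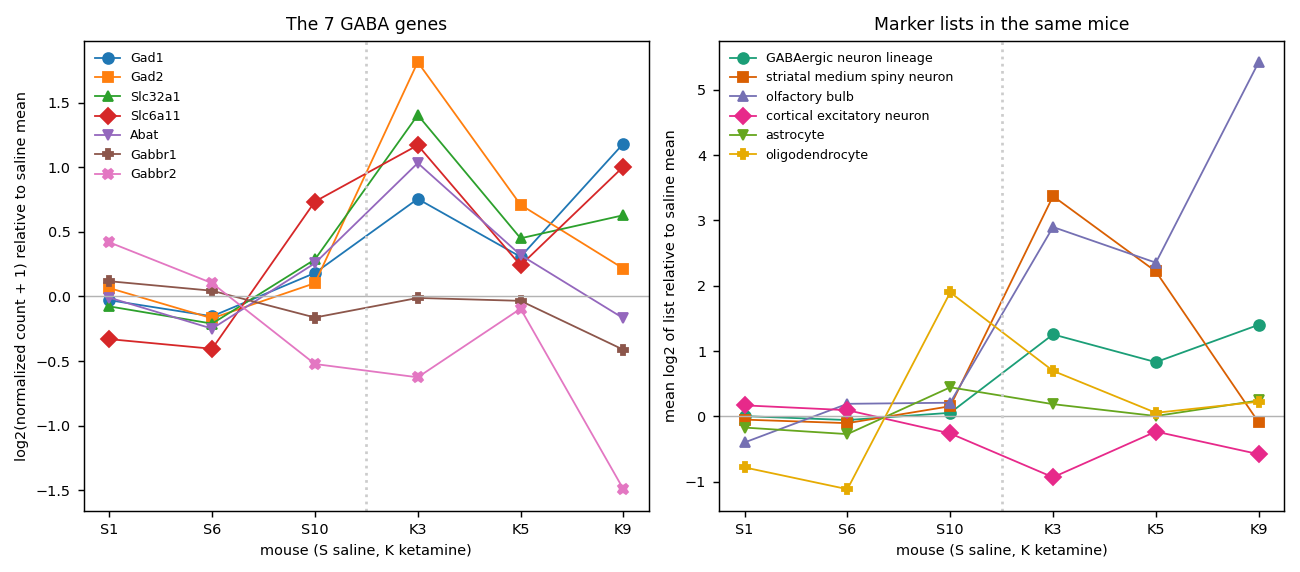
Left, log2(normalized count + 1) of the 7 genes relative to each gene's saline mean, by mouse (S saline, K ketamine); right, the mean of 6 marker lists on the same scale, with lines joining the points of a gene or list and carrying no order between mice. Gad1 peaks in ketamine mouse 9, as do the olfactory bulb markers at 5.42 and the GABAergic neuron lineage markers at 1.40. Gad2 and Slc32a1 peak in ketamine mouse 3, as do the striatal markers at 3.37.

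Uptake and breakdown genes were also higher on average in ketamine mice, but they overlapped between the groups. Slc6a11 (ENSMUSG00000030307, chromosome 6 from 114081235 to 114199880) had 3382, 3212 and 7076 normalized counts in saline mice 1, 6 and 10, compared with 9575, 5026 and 8534 in ketamine mice 3, 5 and 9. Saline mouse 10 stood far above the other saline mice and exceeded ketamine mouse 5. The means were 4557 ± 2184 and 7712 ± 2384 (SD, n = 3 each; two-sided exact permutation p = 0.2). This is a log2 difference of 0.81 (SE 0.36, 95% interval -0.05 to 1.66, adjusted p = 0.889 by limma, 0.711 by DESeq2, 0.896 by edgeR), and without saline mouse 10 it was 1.17. The sum of 12 astrocyte markers was the highest of all 6 mice in saline mouse 10, at 104654 normalized counts, against 74300 and 68895 in saline mice 1 and 6 and between 81423 and 97910 in ketamine mice. Its part in the level of Slc6a11 was not tested.

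Abat (ENSMUSG00000057880, chromosome 16 from 8513522 to 8621661) had 6894, 5837 and 8292 normalized counts in saline mice 1, 6 and 10. It had 14193, 8663 and 6171 in ketamine mice 3, 5 and 9, so that mouse 9 lay within the range of the saline mice. The means were 7008 ± 1232 and 9676 ± 4105 (SD, n = 3 each; two-sided exact permutation p = 0.4). A log2 difference of 0.40 was fitted (SE 0.30, 95% interval -0.32 to 1.11, adjusted p = 0.999 by limma, 1.0 by DESeq2, 0.997 by edgeR). It rested largely on ketamine mouse 3, and was 0.08 without it and -0.17 without ketamine mice 3 and 5. Gm9851, on the other strand from 8618997 to 8621311, shares 2315 exon bases with Abat and averaged 22.2 normalized counts.

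Both subunit genes of the GABA-B receptor had lower means in ketamine mice and overlapped between the groups. Of the 7 genes, Gabbr1 (ENSMUSG00000024462, chromosome 17 from 37182911 to 37212012) had the smallest fitted difference, with 24640, 23414 and 20281 normalized counts in saline mice 1, 6 and 10, compared with 22527, 22178 and 17061 in ketamine mice 3, 5 and 9. Ketamine mice 3 and 5 lay within the saline range and mouse 9 lay below it. The means were 22778 ± 2248 and 20589 ± 3060 (SD, n = 3 each; two-sided exact permutation p = 0.4). The fitted log2 difference was -0.15 (SE 0.17, 95% interval -0.56 to 0.26, adjusted p = 0.999 by limma, 1.0 by DESeq2, 1.0 by edgeR), and without ketamine mouse 9 it was -0.02.

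Gabbr2 (ENSMUSG00000039809, on the minus strand of chromosome 4 from 46675190 to 47004745) had 13697, 11002 and 7129 normalized counts in saline mice 1, 6 and 10, compared with 6639, 9593 and 3642 in ketamine mice 3, 5 and 9. The groups overlapped because saline mouse 10 lay below ketamine mouse 5, and ketamine mouse 9 had the lowest value. The means were 10609 ± 3302 and 6625 ± 2975, or 0.624 times the saline level (SD, n = 3 each; two-sided exact permutation p = 0.2). On the log2 scale the difference was -0.74 (SE 0.38, 95% interval -1.64 to 0.17, adjusted p = 0.966 by limma, 0.871 by DESeq2, 0.962 by edgeR). It was -0.36 without ketamine mouse 9 and -1.06 without ketamine mouse 5. Cortical excitatory neuron markers were lower on average in the ketamine mice for 10 of 11 genes, beside 8555 of all 16127 genes tested. The list's mean in log2 units from the saline mice was -0.93, -0.23 and -0.58 in ketamine mice 3, 5 and 9 and -0.26 in saline mouse 10. Gabbr2 was at -0.63, -0.09 and -1.49 in those ketamine mice and -0.52 in saline mouse 10. The lowest mouse differed, while ketamine mouse 5 was the ketamine mouse nearest to the saline mean in both. The part of these markers in the level of Gabbr2 was not tested.

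**Figure D3:**
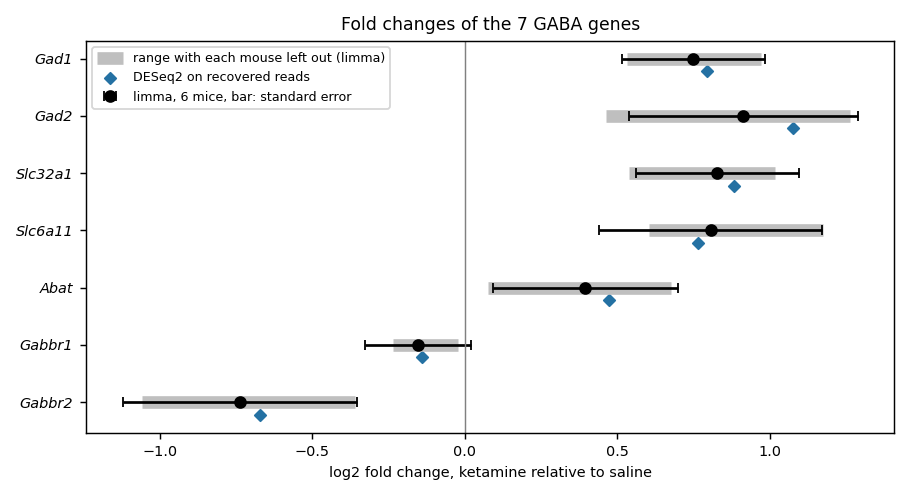
Log2 fold changes of the 7 genes, ketamine relative to saline (horizontal axis), with black points for limma and bars of 1 standard error, grey bands for the range with each mouse left out in turn, and blue diamonds for DESeq2 on the recovered reads. No grey band crosses 0, and the bands of Gad2 (0.46 to 1.26) and Gabbr2 (-1.06 to -0.36) are among the widest.

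Levels were compared between genes per kilobase of exon in GENCODE M1. The lengths include bases shared with a gene on the other strand, 2315 of 7748 for Abat and 697 of 2806 for Slc32a1. How reads over these bases were counted is not given, so the levels of these genes are less certain. In saline mice Gabbr1 was highest, at 2923 ± 289 normalized counts per kilobase, and Gabbr2 followed at 1814 ± 564 (SD, n = 3 each), with no overlap between them. Gad1 was at 1239 ± 147, Slc6a11 at 1121 ± 537, Abat at 904 ± 159, Slc32a1 at 829 ± 152 and Gad2 at 731 ± 72.5, and from Gabbr2 down each gene overlapped the next. In ketamine mice Gabbr1 was again highest, at 2642 ± 393, and Gad1 followed at 2136 ± 640, with Slc6a11 at 1897 ± 586 (SD, n = 3 each). Gad2 was at 1533 ± 908, Slc32a1 at 1520 ± 569, Abat at 1249 ± 530 and Gabbr2 at 1133 ± 509 normalized counts per kilobase, and all neighbours in this order overlapped. Gabbr2 thus stood at place 2 of 7 in saline mice and at place 7 in ketamine mice, while Gad2 stood at place 7 and at place 4. The overlaps leave most of this order open to the spread between mice.

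Ratios within a library do not depend on its scaling. The ratio of Gad2 to Gad1 was 0.485, 0.450 and 0.430 in saline mice 1, 6 and 10, compared with 0.947, 0.601 and 0.232 in ketamine mice 3, 5 and 9. It was nearly constant in saline mice, whereas 2 ketamine mice lay above them and 1 below. The mean log2 difference was 0.16 (SE 0.60, two-sided exact permutation p = 0.7), and it was -0.28 without ketamine mouse 3 and 0.73 without ketamine mouse 9. The ratio of Slc32a1 to Gad1 behaved alike, at 0.235 to 0.263 in saline mice, compared with 0.383, 0.270 and 0.166 in ketamine mice 3, 5 and 9. Its log2 difference was 0.08 (SE 0.35, exact permutation p = 0.7), and it was -0.21 without ketamine mouse 3. The ratio of Abat to Gad1 was 0.689 to 0.776 in saline mice, compared with 0.892, 0.743 and 0.288 in ketamine mice 3, 5 and 9. Its log2 difference was -0.35 (SE 0.51, exact permutation p = 0.8), and it was 0.15 without ketamine mouse 9. In all 3 of these ratios ketamine mouse 9 stood below all the saline mice and ketamine mouse 3 above them. All 3 have Gad1 as the denominator, which was highest in ketamine mouse 9, so they are not independent of each other.

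The ratio of Gabbr2 to Gabbr1, the 2 subunits of a single receptor, was 0.556, 0.470 and 0.352 in saline mice 1, 6 and 10. It was 0.295, 0.433 and 0.213 in ketamine mice 3, 5 and 9. The groups overlapped, since ketamine mouse 5 lay within the saline range, while ketamine mice 3 and 9 lay below it. The log2 difference was -0.58 (SE 0.35, two-sided exact permutation p = 0.2), and leaving out single mice gave values from -0.85 to -0.34. Over the 4 ratios tested, the adjusted p was 0.8 for each by the same exact permutation test.

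**Figure D4:**
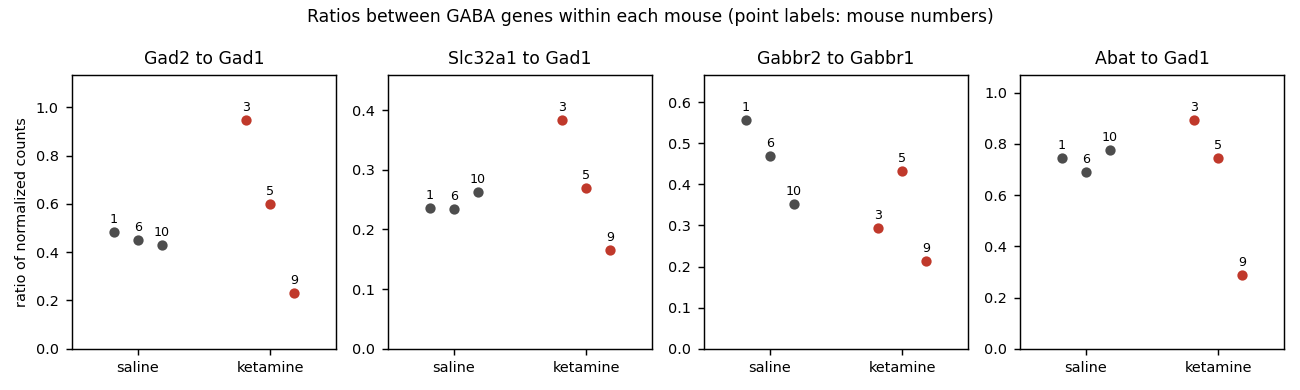
Ratios of normalized counts between pairs of genes within each library (vertical axis, from 0), in saline mice (grey) and ketamine mice (red), with the mouse number above each point. The ratios of Gad2, Slc32a1 and Abat to Gad1 lie close together in saline mice and spread in ketamine mice, with mouse 3 highest and mouse 9 lowest, and that of Gabbr2 to Gabbr1 overlaps between the groups.

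The genes with the most similar profiles were sought among the 12412 other genes averaging 100 normalized counts or more. Likeness was the mean absolute difference over the 6 mice between log2 values relative to each gene's saline mean, with no test. For Gad1 the nearest were Zic2 (0.08), Csdc2 (0.08) and Mdfic (0.09). For Gad2 they were Amotl1 (0.13), Slc8a3 (0.15) and Rps6ka6 (0.15), and for Slc32a1 they were Sema3f (0.07), Gulp1 (0.08) and Gabrg1 (0.10). For Slc6a11 they were Lrrc1 (0.10), Inadl (0.12) and Shb (0.16), and for Abat they were Mmp15 (0.07), Gfra1 (0.07) and Rps6ka5 (0.08). For Gabbr1 they were B4galt6, Rabgap1 and Nudcd3 (0.02 each), and for Gabbr2 they were Gm5101 (0.07), Hecw1 (0.09) and Rgs6 (0.10). The number of genes within 0.25 was 43 for Gad2 and 43 for Slc6a11, 278 for Gad1 and 7499 for Gabbr1, so that the profile of Gabbr1 was a common one and those of Gad2 and Slc6a11 were rare. Among the 7 genes themselves, the closest pairs were Slc32a1 with Abat and Slc32a1 with Gad2 (0.24 each), and Gad1 with Gad2 were 0.44 apart.

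Of 18 other genes of GABA and glutamine metabolism, limma, edgeR and DESeq2 each called 0 at an adjusted p under 0.05 (0%, 0% and 1.13% of all genes). Limma gave an unadjusted p under 0.05 for 2 of the 18, against 5.81% of all genes. The ketamine mice lay entirely above the saline mice for 1 of the 18 and entirely below for 2, against 5.69% and 4.66% of all genes. On average 12 of the 18 were higher and 6 lower, around a median of 0.08 in log2. The smallest p-values were those of Gls2 and Slc38a3. Gls2, a glutaminase that makes glutamate from glutamine, had 740, 834 and 824 normalized counts in saline mice 1, 6 and 10, compared with 503, 663 and 566 in ketamine mice 3, 5 and 9. It was lower in every ketamine mouse, by limma at -0.48 in log2 (SE 0.15, adjusted p = 0.675 by limma). Slc38a3, which encodes a glutamine transporter of astrocytes, had 1779 to 1956 normalized counts in saline mice, compared with 2171, 2263 and 3484 in ketamine mice 3, 5 and 9. It was higher in every ketamine mouse, by limma at 0.48 in log2 (SE 0.20, adjusted p = 0.851 by limma). Aldh5a1, which follows Abat in the breakdown of GABA, had 2526 to 3265 normalized counts in saline mice and 2434 to 4183 in ketamine mice (log2 fold change 0.17, adjusted p = 0.999 by limma).

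Of 19 genes of GABA-B receptor partners and effectors, limma, edgeR and DESeq2 each called 0 (0%, 0% and 1.13% of all genes). Limma gave an unadjusted p under 0.05 for 0 of the 19, against 5.81% of all genes. On average 10 of the 19 were higher and 9 lower, around a median of 0.00 in log2. Every gene of the list overlapped between the groups, where 5.69% of all genes lay entirely above and 4.66% entirely below. For 19 genes, counts of 0 are not far from these shares. The smallest p-values were those of Kcnj6, Kcnj5 and Kcnj9, which encode subunits of the potassium channels that GABA-B receptors open through G proteins. Kcnj6 had 1024, 712 and 638 normalized counts in saline mice 1, 6 and 10, compared with 426, 750 and 189 in ketamine mice 3, 5 and 9. The log2 difference of Kcnj6 was -0.98 (SE 0.47, adjusted p = 0.922 by limma). Kcnj9 had 5610, 4716 and 3025 in saline mice, compared with 2688, 4013 and 2769 in ketamine mice 3, 5 and 9, which is -0.47 in log2 (SE 0.26, adjusted p = 0.999 by limma). In both genes ketamine mouse 5 lay within the saline range, as it did for Gabbr2. Kcnj5 was low, at 0, 1.93 and 18.7 normalized counts in saline mice 1, 6 and 10, compared with 97.9, 6.59 and 11.8 in ketamine mice 3, 5 and 9. Only ketamine mouse 3 was above the saline range (log2 fold change 2.46, adjusted p = 0.97 by limma). Of the auxiliary subunits, Kctd16 had 277 to 663 normalized counts in saline mice and 128 to 544 in ketamine mice, and Kctd12 had 1645 to 2410 and 1947 to 2673.

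**Figure D5:**
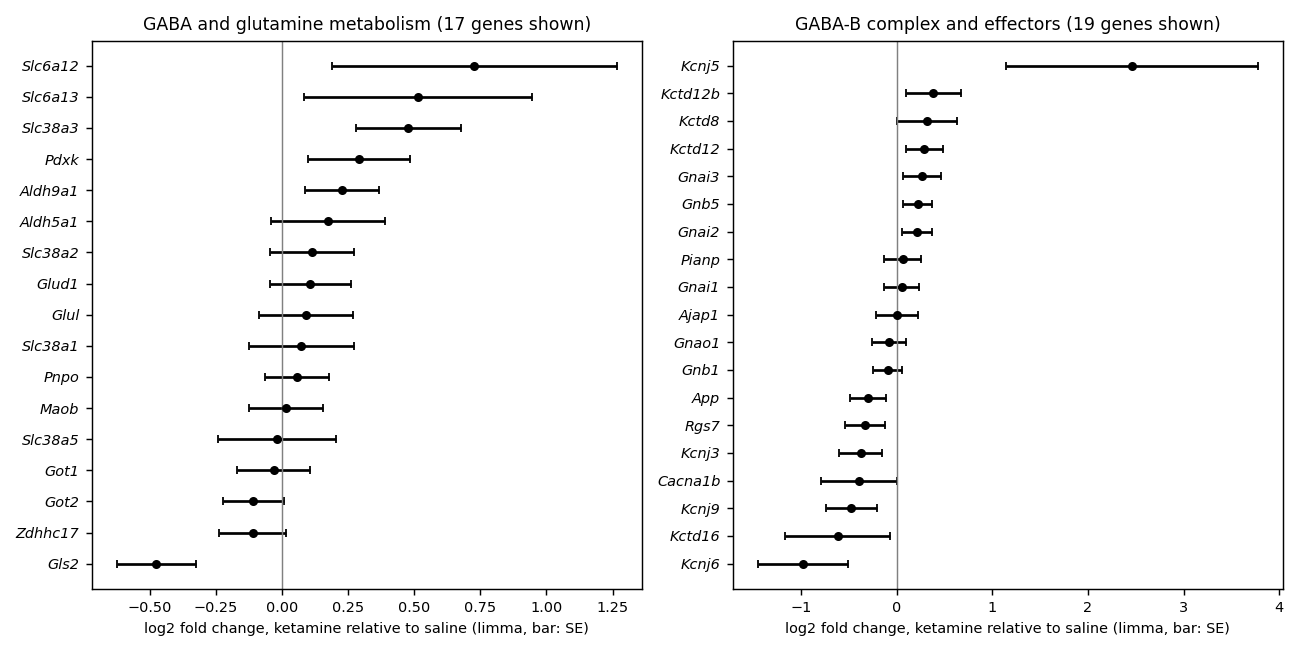
Log2 fold changes by limma, ketamine relative to saline (horizontal axis), with bars of 1 standard error, for 17 of the 18 genes of GABA and glutamine metabolism (left) and 19 genes of GABA-B receptor partners and effectors (right). No gene passed the adjusted threshold, Gls2 (-0.48) is the lowest on the left, and Kcnj5 (2.46) and Kcnj6 (-0.98) are the ends of the range on the right.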

How the data were processed

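RNA from the PLc of 3 saline and 3 ketamine mice was sequenced as 1 library per mouse, and groups and mouse numbers were taken from the sample labels. The submitters' processing notes name TopHat2 (2.0.11), HTSeq, DESeq2 and mm9. The values the authors deposited are a signal, named normalized counts, and in each library they were whole multiples of a step, as reads divided by a size factor are. The annotation, the strand setting and filters are not given in the sources used here. Whole reads were recovered by dividing each library's values by the worth of 1 read (at least 99.99% of values whole within 0.0051 per library).

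Log2(normalized count + 1) was fitted by limma 3.58.1 (R 4.3.3) using a mean-variance trend. Genes averaging 10 normalized counts or more, 16127 in all, were tested. Benjamini-Hochberg adjustment ran over all of these, and fold changes on this scale understate those of low genes. As alternatives, recovered reads were tested by edgeR 4.0.16 and by DESeq2 1.42.0, and limma was rerun with other scalings, filters and pseudocounts, no trend, and each mouse left out. Single values were compared with exact permutation tests (scipy 1.17.1). The tests were checked on simulated reads. Gene models were those of GENCODE M1 on mm9. List symbols were matched to the table, then to older symbols. The genes named are the 7, the 3 of each pathway list with the smallest p, up to 3 markers of a list, and the 3 nearest profiles of each of the 7. Aldh5a1, Kctd16 and Kctd12 were added after their values were seen. Of the genes the rule names, 1 is not reported here. The members and lists were chosen with earlier results of these data known.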

Additional observations from a re-analysis of the deposited data

How the results depend on the processing

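The 7 genes kept their side of the threshold under each of 17 alternatives, with a smallest adjusted p of 0.0745, and 118 of 119 values kept their direction. The exception was Abat, at -0.17 without ketamine mice 3 and 5, a setting added after seeing the data. The number of genes called was 0 with limma, 182 with DESeq2, between 0 and 1 with each mouse left out (1 without ketamine mouse 5 and 1 without ketamine mouse 9), and 587 without saline mouse 10 and ketamine mouse 9, also an added setting with 2 mice a group. It was 0 under the other 9 settings. With each mouse left out, the log2 difference of the ratios ranged from -0.28 to 0.73 for Gad2 to Gad1, from -0.21 to 0.40 for Slc32a1 to Gad1 and from -0.67 to 0.15 for Abat to Gad1, so their direction depended on 1 mouse. Without ketamine mice 3 and 5, the first of these was -0.97 and the next -0.55, and without saline mouse 10 and ketamine mouse 9 the third was 0.18. The causes were not tested. The median log2 fold change of all genes was -0.01 under each of the 3 scalings. No paired analysis was possible because the groups share no mouse number. With 3 mice against 3, a permutation test cannot give a p under 0.1.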
